A study of Mus musculus with 4 samples.

Results

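The genes described here encode enzymes of the tricarboxylic acid (TCA) cycle, measured in the livers of fasted mice. They are Cs, Idh2, Idh3a, Idh3g, Ogdh, Dlst, Suclg1, Fh1 and Mdh2, 9 genes of 13380 tested. Every probe set that the array platform's annotation ties to 1 of these symbols and to no other gene was taken, which gave 21 probe sets of 45101. The Cnot3+/- group held 2 male C57BL/6J mice labelled as Cnot3 heterozygotes, and the wild-type group held 2 male C57BL/6J mice. All 4 mice were 12 weeks old, had been kept on normal chow and were deprived of food for 24 h. Each liver gave 1 one-colour Affymetrix array, and the labels call the samples of a genotype biological replicates. The sources used here do not describe how the Cnot3 allele was altered. The values are log2 expression values from RMA, so a difference of 1 is a factor of 2, and with 2 arrays per group their number limits the precision.

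The TCA cycle runs in the mitochondrial matrix, where it oxidises the acetyl group of acetyl-CoA to carbon dioxide and passes the electrons to NAD and FAD for the respiratory chain. In fasting liver much of the acetyl-CoA from fatty acid oxidation goes to ketone bodies instead, and malate leaves the cycle for gluconeogenesis. CNOT3 is a part of CCR4-NOT, the main cytoplasmic machine for removing poly(A) tails from mRNA.

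Promoter sequences are shown for the members whose values did not overlap between the groups, as far as RefSeq's table of windows around start sites (build GRCm38.p6) holds them. It matched 8 of the 9 members. Each window runs from 250 bases before the annotated start to 50 bases after it, 5′ to 3′ on the gene's strand. Capitals mark GGGCGG (the GC box) and CCAAT on either strand, and no marked motif overlaps another. Cs lies at chr10:128337477-128337776 (+), Idh2 at chr7:80115301-80115600 (-), Ogdh at chr11:6291347-6291646 (+) and Suclg1 at chr6:73248255-73248554 (+). For Ogdh the most upstream of 6 annotated starts is shown. Which start is used in these livers was not measured.
Cs: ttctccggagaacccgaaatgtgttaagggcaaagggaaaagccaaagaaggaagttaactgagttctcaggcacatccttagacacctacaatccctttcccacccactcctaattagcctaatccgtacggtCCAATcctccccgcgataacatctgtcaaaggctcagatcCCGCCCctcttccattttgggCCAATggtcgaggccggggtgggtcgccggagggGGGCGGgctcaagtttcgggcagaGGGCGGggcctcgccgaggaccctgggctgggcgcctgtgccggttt
Idh2: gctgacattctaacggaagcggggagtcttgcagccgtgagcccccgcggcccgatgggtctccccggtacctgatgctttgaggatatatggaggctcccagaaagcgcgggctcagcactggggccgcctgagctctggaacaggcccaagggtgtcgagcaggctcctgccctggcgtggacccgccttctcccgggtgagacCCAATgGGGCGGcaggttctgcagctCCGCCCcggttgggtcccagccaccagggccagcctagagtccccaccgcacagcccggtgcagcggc
Ogdh: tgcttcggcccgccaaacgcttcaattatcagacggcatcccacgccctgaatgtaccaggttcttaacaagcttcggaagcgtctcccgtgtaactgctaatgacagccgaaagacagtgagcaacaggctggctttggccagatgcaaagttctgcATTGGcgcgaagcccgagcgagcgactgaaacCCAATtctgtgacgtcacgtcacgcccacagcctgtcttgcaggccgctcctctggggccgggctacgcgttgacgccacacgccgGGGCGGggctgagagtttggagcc
Suclg1: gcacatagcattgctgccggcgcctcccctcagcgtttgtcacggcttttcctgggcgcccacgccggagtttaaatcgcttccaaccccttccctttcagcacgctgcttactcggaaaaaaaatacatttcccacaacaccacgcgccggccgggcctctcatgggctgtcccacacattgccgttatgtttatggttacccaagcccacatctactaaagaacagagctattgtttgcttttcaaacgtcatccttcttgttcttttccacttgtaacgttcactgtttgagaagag
The Cs window held 3 GC boxes and 2 CCAAT motifs, that of Idh2 held 2 and 1, and that of Ogdh held 1 and 2. The Suclg1 window held neither set of letters. The 8 matched members have 13 windows, 6 of them overlapping or neighbouring windows of Ogdh. A GC box stood in 9 of the 13, from 6 members, and in 35.7% of the 32851 windows in the table. CCAAT stood in 9 of the 13, from 4 members, and in 37.4% of all windows. AAGGTCA, the half-site that estrogen-related receptors recognise, was present in 1 of the 13, at another start of Ogdh, and in 4.72% of all windows. CCGGAAG, an ETS motif, was found in 2 of the 13, those of Dlst and Idh3g, and in 8.86% of all windows. These motifs were searched on both strands, and a match is not evidence of binding.

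The 4 arrays had median log2 values between 4.62 and 4.66. Cnot3 stood at 7.70 and 7.86 in the Cnot3+/- livers and at 7.48 and 8.14 in the wild-type livers on its brighter probe set. On its dimmer probe set it stood at 5.54 and 5.54 in Cnot3+/- and at 5.33 and 5.52 in wild-type. Neither probe set showed a clear fall in Cnot3+/-, with differences of -0.031 (SE 0.25) and 0.11 (SE 0.14). Each direction below therefore rests on the arrays as labelled. Hepatocyte markers other than Ass1 were bright, with all 7 listed genes above the filter and a list mean between 12.99 and 13.21 on every array. Relative to the wild-type mean this list stood higher by 0.21 in Cnot3+/- 1 and by 0.071 in Cnot3+/- 2. Both wild-type arrays were within 0.0065 of that mean, and 6 of its 7 genes were higher in Cnot3+/-. Ass1 had the widest difference of the list, at 7.66 and 7.09 in Cnot3+/- and 6.71 and 6.63 in wild-type. The log2 of the summed hepatocyte signal was 16.77 and 16.74 in Cnot3+/- and 16.71 and 16.72 in wild-type. Macrophage markers differed between the Cnot3+/- livers, with list means of -0.40 in Cnot3+/- 1 and 1.81 in Cnot3+/- 2 on the same footing, all 10 measured markers higher on average in Cnot3+/- and none at 0 on this scale. The log2 of their summed signal was 11.45 and 13.42 for the Cnot3+/- livers, against 11.74 and 11.96 for the wild-type livers. Sinusoidal endothelial markers were lower in Cnot3+/-, at -0.94 in Cnot3+/- 1 and -0.17 in Cnot3+/- 2, with 0 of 7 higher. Stellate markers stood at -0.46 and 0.56 in these livers, lymphocyte markers at -0.19 and 0.64, and neutrophil markers at 0.067 and 0.60. The wild-type arrays lay within 0.063 of their mean for these 4 lists. The part of these cell types in the TCA values was not tested. In bulk liver, fewer cells of a type and less RNA per cell cannot be told apart.

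No TCA gene passed the test between the genotypes, and the largest differences were well under a factor of 2. Idh2 and Ogdh stood higher in both Cnot3+/- livers than in either wild-type liver, and Idh3a stood lower. In limma over all 13380 genes, 0 of the 9 members had a Benjamini-Hochberg adjusted p below 0.05, 0 had an unadjusted p below 0.05, and the lowest adjusted p among them was 0.999. Over all genes 2 passed, which is 0.0149%, and 3.57% had an unadjusted p below 0.05. The 95% confidence interval of the difference lay within a factor of 2 both ways for all 9 members and for 92% of all genes. Of the members 7 had a higher and 2 a lower mean in Cnot3+/-, beside 6403 higher and 6976 lower among all 13380 genes. The members' median difference, Cnot3+/- minus wild-type, was 0.035, beside -0.0087 over all genes. The median size of a difference was 0.087 for the members and 0.12 for all genes. Without Cnot3+/- 2 the members' median was 0.14, without wild-type 1 it was 0.11, and without wild-type 2 it turned to -0.016.

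**Figure D1:**
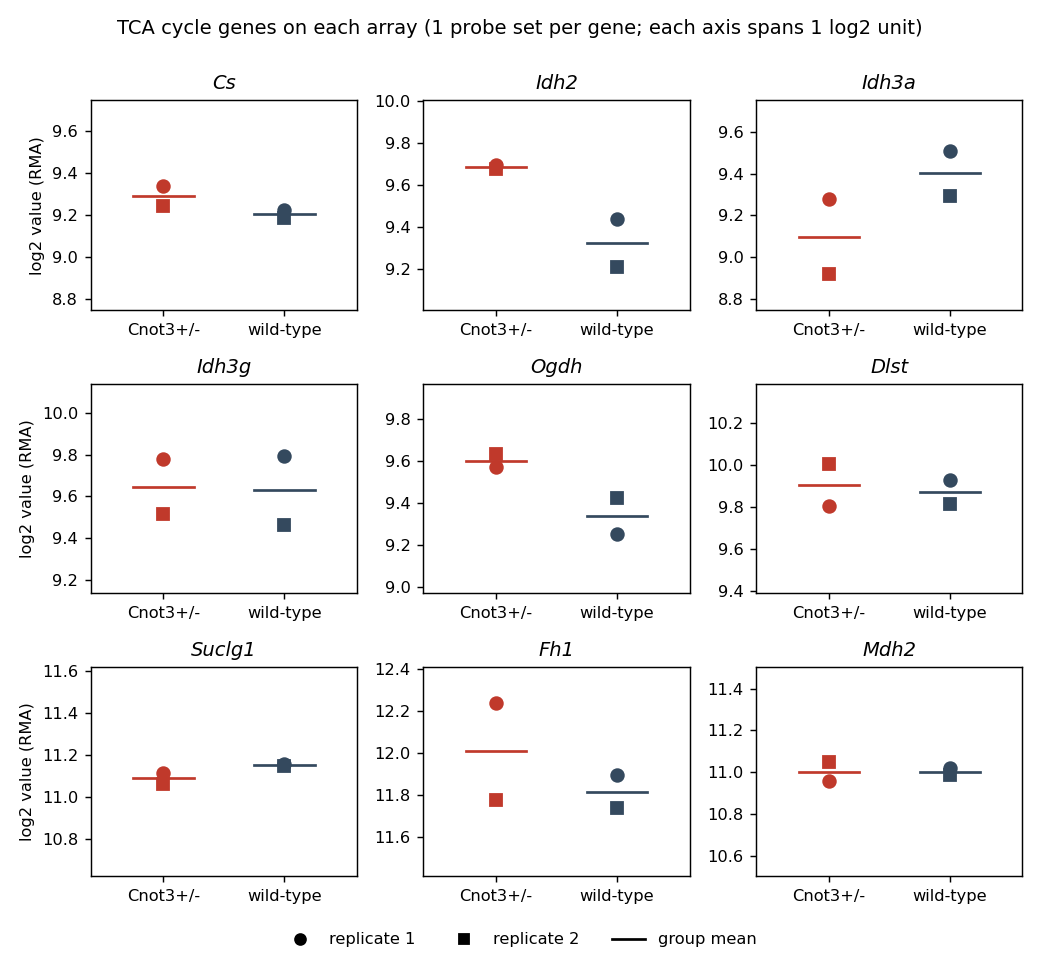
Log2 values of the 9 TCA cycle genes on each array, with 1 probe set per gene, Cnot3+/- left and wild-type right. Points are single livers, lines are group means and every vertical axis spans 1 log2 unit, so that the higher Idh2 and Ogdh and the lower Idh3a of Cnot3+/- can be seen beside Mdh2, whose groups overlap.

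Citrate synthase, encoded by Cs, joins acetyl-CoA to oxaloacetate and opens the cycle. Its values were 9.34 and 9.24 in Cnot3+/- and 9.22 and 9.19 in wild-type. Both Cnot3+/- livers were above both wild-type livers, by a margin smaller than the gap between the Cnot3+/- livers. The difference was 0.087 (limma SE 0.13, n = 2 per group, adjusted p = 0.999), with a 95% interval from -0.25 to 0.42. The other Cs probe sets differed by 0.038 (SE 0.13) and 0.11 (SE 0.14), and their groups did not overlap either. All 3 read the same RNA samples, so they are not independent. Without Cnot3+/- 1 the difference of Cs was 0.037, and without Cnot3+/- 2 it was 0.14.

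The next oxidation step, from isocitrate to 2-oxoglutarate, held the largest differences of either sign. Idh2 encodes the mitochondrial isocitrate dehydrogenase that uses NADP. It stood at 9.69 and 9.68 in Cnot3+/- and at 9.44 and 9.21 in wild-type. The Cnot3+/- livers lay close together and above both wild-type livers. Idh2 was 1.29-fold higher (interval 0.996 to 1.66), a log2 difference of 0.36 (SE 0.15, unadjusted p = 0.0528, limma adjusted p = 0.999). This is larger in size than the differences of 90.4% of all genes tested. The log2 difference of Idh2 was 0.25 without wild-type 2 and 0.48 without wild-type 1. It was 0.36 without Cnot3+/- 1 and 0.37 without Cnot3+/- 2. A second Idh2 probe set, at 3.76 and 3.79 in Cnot3+/- and 3.70 and 3.98 in wild-type, was too dim to pass the filter and was not tested.

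Idh3a and Idh3g encode the catalytic alpha and the regulatory gamma subunit of the NAD-dependent isocitrate dehydrogenase, which work in one enzyme complex. Idh3a stood at 9.28 and 8.92 in Cnot3+/- and at 9.51 and 9.29 in wild-type. The groups did not overlap, but Cnot3+/- 1 lay just below wild-type 2 and much of the gap came from Cnot3+/- 2. The difference was -0.30 (SE 0.18, limma adjusted p = 0.999), or a fold of 0.811 with an interval from 0.589 to 1.12. It was -0.48 without Cnot3+/- 1, -0.12 without Cnot3+/- 2 and -0.19 without wild-type 1. Cnot3+/- 2, the liver with the lowest Idh3a value on this probe set, was the one with the highest macrophage markers. The same liver had the highest Ogdh, Dlst and Mdh2 values on the probe sets used for these genes. Other probe sets differed in this. A second Mdh2 set was highest in wild-type 1 (11.03, against 10.93 in Cnot3+/- 2), and the dimmest Dlst set in wild-type 2 (4.63). On the dimmest Idh3a set Cnot3+/- 1 was lowest, at 5.61 against 5.69 in Cnot3+/- 2. A link to macrophage markers was not tested. The other 3 Idh3a probe sets were dimmer and also had lower means in Cnot3+/-, by -0.11 (SE 0.16) on an _s_at set, -0.062 (SE 0.24) on an _x_at set and -0.26 (SE 0.18) on the last. The first and second of these kinds can match several transcripts, and on both the groups overlapped.

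Idh3g, in contrast to Idh3a, had overlapping groups. It stood at 9.78 and 9.52 in Cnot3+/- and at 9.79 and 9.46 in wild-type, so replicate 1 was the higher liver in each genotype. The difference was 0.018 (SE 0.18), with an interval from -0.45 to 0.48, and it changed sign with single arrays left out, being -0.15 if wild-type 2 was dropped and 0.18 if wild-type 1 was. A second Idh3g probe set differed by 0.039 (SE 0.20). Whether the Idh3 subunits and Idh2 changed unequally was looked at within each array, a comparison chosen after the values were seen and given with no test. Idh2 minus Idh3a was 0.42 and 0.76 in Cnot3+/- and -0.071 and -0.085 in wild-type, a shift of 0.67. Idh3a minus Idh3g was -0.50 and -0.60 in Cnot3+/- and -0.29 and -0.17 in wild-type, a shift of -0.32. Idh2 minus Idh3g shifted by 0.35. Each shift is only the difference of 1 gene less that of the other, as given above, so it adds no separate support. The single values of such a subtraction depend on the probes, and only the shift between genotypes can be read.

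The 2-oxoglutarate dehydrogenase complex makes succinyl-CoA, and Ogdh encodes its first, decarboxylating component. Ogdh stood at 9.57 and 9.63 in Cnot3+/- and at 9.25 and 9.42 in wild-type. Both Cnot3+/- livers were above both wild-type livers. The gene was 1.20-fold higher (interval 0.940 to 1.53), a log2 difference of 0.26 (SE 0.14, limma adjusted p = 0.999). Dropping wild-type 1 gave 0.18 and dropping wild-type 2 gave 0.35. A dimmer Ogdh probe set gave 0.30 (SE 0.24) with overlapping groups, since wild-type 2 at 5.84 lay above Cnot3+/- 1 at 5.68.

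Dlst encodes the succinyltransferase core of the same complex, which carries lipoic acid. Its brightest probe set stood at 9.81 and 10.01 in Cnot3+/- and at 9.93 and 9.81 in wild-type. The wild-type values lay within the Cnot3+/- range. The difference was 0.035 (SE 0.15), with an interval from -0.33 to 0.40, and it turned to -0.064 without Cnot3+/- 2 and -0.021 without wild-type 2. The 4 Dlst probe sets disagreed in size. A dim probe set, not far above the median of the arrays, gave 0.39 (SE 0.18), at 5.28 and 5.33 in Cnot3+/- and 4.71 and 5.12 in wild-type, while the others gave 0.012 (SE 0.14) and -0.029 (SE 0.17). No probe set of the members passed in the fit over 27061 probe sets, where 2 probe sets (0.00739%) did. No probe set of the members had an unadjusted p below 0.05 in that fit, while 3.72% of all probe sets had one.

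**Figure D2:**
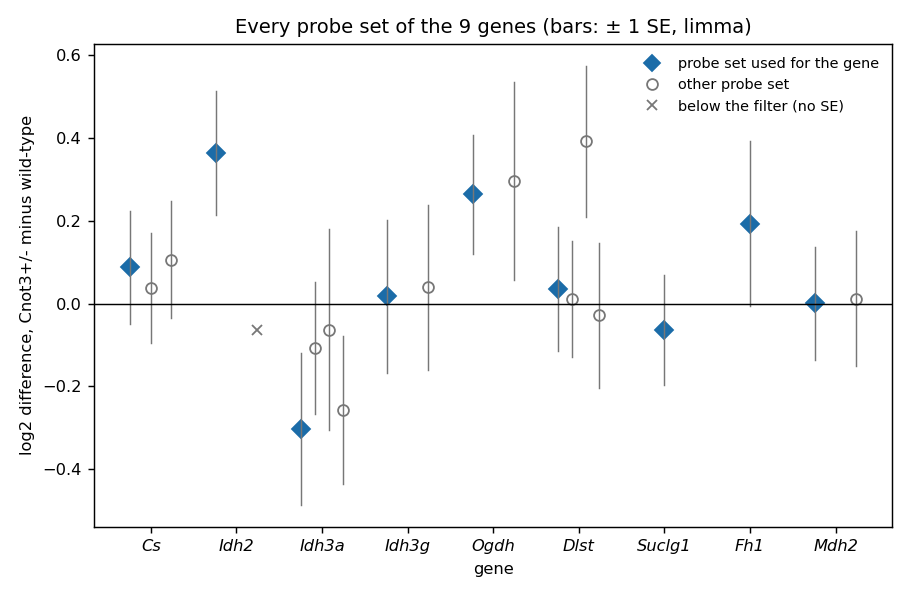
Log2 difference, Cnot3+/- minus wild-type, for all 21 probe sets of the 9 genes, with bars of 1 SE from limma for the 20 above the filter. The Idh3a sets all lie below 0 and the Cs and Ogdh sets above it, while Dlst runs from -0.029 to 0.39.

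The remaining members serve the later steps of the cycle. Suclg1 encodes the alpha subunit of succinyl-CoA synthetase, which pairs with either of its beta subunits, Suclg2 or Sucla2. Suclg1 stood at 11.12 and 11.06 in Cnot3+/- and at 11.16 and 11.15 in wild-type. Cnot3+/- was lower on both arrays by a narrow margin, with a difference of -0.064 (SE 0.13) and an interval from -0.39 to 0.26. Its fold of 0.957, from 0.764 to 1.20, bounds any fall more tightly than that of Idh3a.

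Fh1, the gene of fumarase, which makes malate from fumarate, owed its difference to a single liver. Cnot3+/- 1 had a value of 12.24 and Cnot3+/- 2 of 11.77, and the wild-type livers had 11.89 and 11.74. Cnot3+/- 2 lay inside the wild-type range. The difference was 0.19 (SE 0.20, limma adjusted p = 0.999), and it was -0.039 without Cnot3+/- 1 and 0.43 without Cnot3+/- 2.

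Mdh2 encodes the mitochondrial malate dehydrogenase, which regenerates oxaloacetate. It stood at 10.96 and 11.05 in Cnot3+/- and at 11.02 and 10.99 in wild-type. The groups overlapped and their means differed by 0.00044 (SE 0.13). The interval, from -0.33 to 0.33, corresponds to a fold between 0.795 and 1.26. A second Mdh2 probe set differed by 0.012 (SE 0.16).

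**Figure D3:**
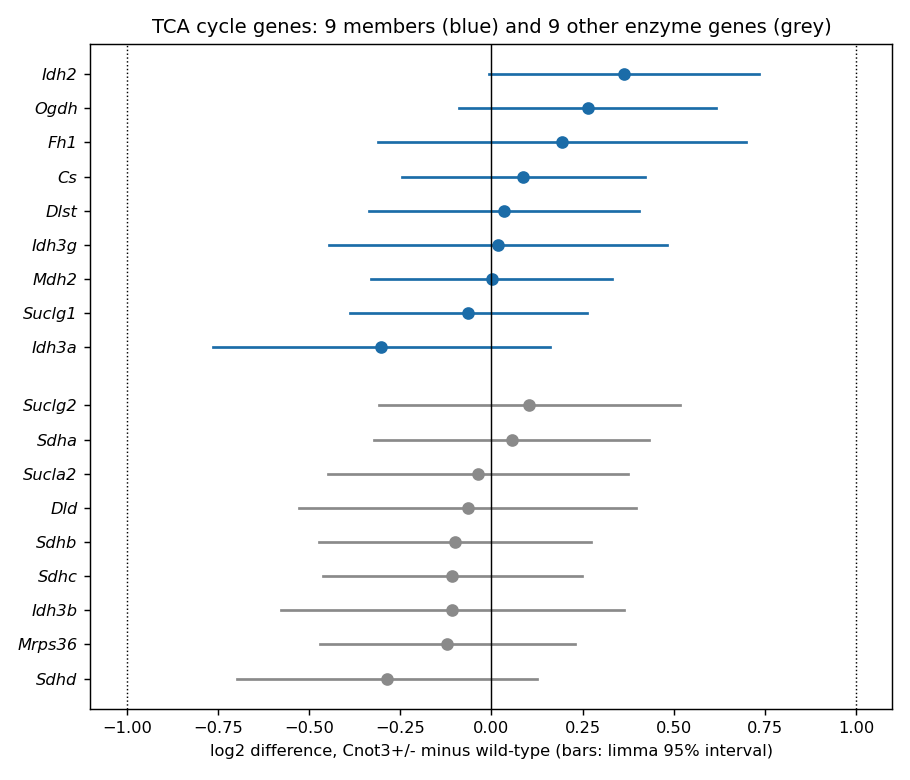
Log2 difference, Cnot3+/- minus wild-type, with limma 95% intervals for the 9 members in blue and 9 other TCA cycle genes in grey. Dotted lines mark a factor of 2 in each direction. Every interval crosses 0 and none reaches a dotted line.

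Across the members, 5 of 9 had groups that did not overlap, 3 higher and 2 lower in Cnot3+/-. Over all genes this was so for 31.5%, with 14.1% higher and 17.4% lower. Among these 5, Cs and Suclg1 differed by less than 0.1. Of the 20 probe sets above the filter, 6 were higher and 3 lower without overlap, against 14.5% and 16.5% (31% together) of all probe sets tested. In Cnot3+/- 6 of the 9 members were higher in replicate 1 than in replicate 2, beside 51.2% of all genes. In wild-type 8 of the 9 were, beside 49.5% of all genes. The median gap between the livers of a genotype was 0.10 for the members and 0.18 for all genes in Cnot3+/-, and 0.16 and 0.18 in wild-type. The widest gap of a member was 0.46 in Cnot3+/- and 0.33 in wild-type. Of all genes, 432 were at least 2-fold apart between the Cnot3+/- livers and 74 between the wild-type livers. Averaged over the 9 members and set against the wild-type mean, the arrays stood at 0.12 in Cnot3+/- 1, 0.016 in Cnot3+/- 2, 0.053 in wild-type 1 and -0.053 in wild-type 2. Cnot3+/- 2 therefore lay between the wild-type livers.

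**Figure D4:**
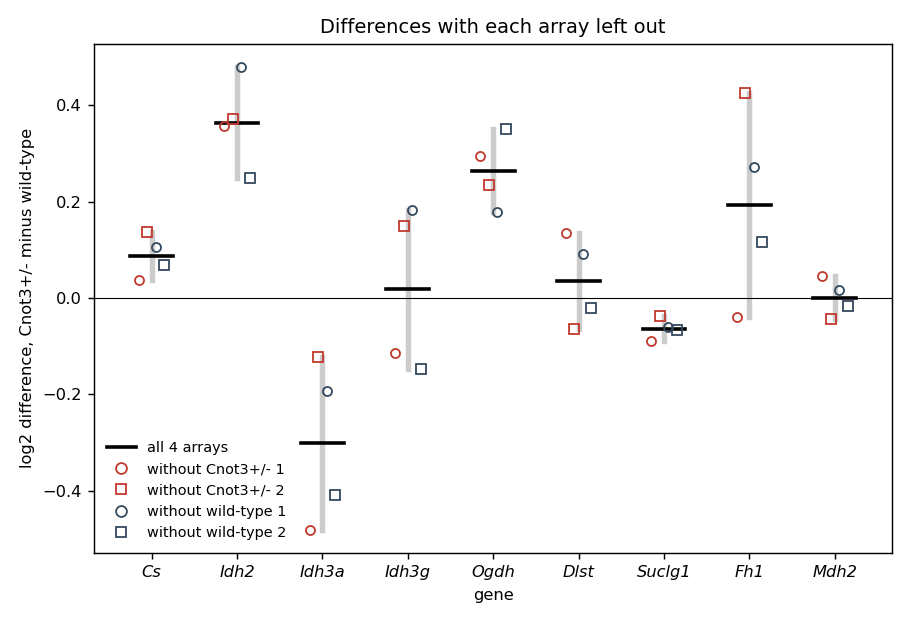
Log2 difference of each member, Cnot3+/- minus wild-type, with all 4 arrays (black line) and with 1 array left out (symbols). Cs, Idh2, Idh3a, Ogdh and Suclg1 kept their sign with any array left out, while Idh3g, Dlst, Fh1 and Mdh2 changed it with at least 1.

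Among the 13371 tested genes that are no member, the genes whose centred values followed the members' mean profile most closely were Unc13d, Sik3, Ppib, Itfg1 and Tbxas1, each with a Pearson correlation above 0.999 over the 4 arrays. With 4 points and so many genes, values this high are a description of these arrays.

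Other enzymes of the cycle were near wild-type and mostly slightly lower. Of 11 listed genes 9 were tested, and 0 passed in limma in either direction, with 0 at an unadjusted p below 0.05. Their mean was higher for 2 and lower for 7, with a median of -0.10. Sdhd, which encodes a membrane anchor of succinate dehydrogenase, was the gene of this list without overlap on the probe sets used. It stood at 10.97 and 10.74 in Cnot3+/- and 11.25 and 11.03 in wild-type. Its difference was -0.29 (SE 0.16), and -0.17 without Cnot3+/- 2 or without wild-type 1. A dimmer Sdhd probe set, an _x_at one, gave -0.28 with overlapping groups. The other succinate dehydrogenase genes differed by 0.056 for Sdha, -0.10 for Sdhb and -0.11 for Sdhc. Idh3b, the beta subunit partner of Idh3a and Idh3g, differed by -0.11 (SE 0.18). Dld, the dihydrolipoamide dehydrogenase that works with Ogdh and Dlst, differed by -0.065 (SE 0.18), and Mrps36, a further component of that complex, by -0.12 (SE 0.14). The succinyl-CoA synthetase beta subunit genes Suclg2 and Sucla2 differed by 0.10 and -0.037. A brighter Suclg2 probe set, an _s_at one, differed by 0.16 without overlap. Without Cnot3+/- 2 the median of this list was 0.066.

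Genes that attach lipoic acid or build iron-sulfur clusters, on which Dlst and aconitase depend, had lower means in 10 of 11 tested. Of all 13380 genes 6976 had a lower mean. None of the 11 passed in limma, and 1 had an unadjusted p below 0.05. The list median was -0.19, and 5 of its genes were lower without overlap, beside 17.4% of all genes. Lipt1, a lipoyltransferase gene, stood at 6.40 and 6.19 in Cnot3+/- and 6.92 and 6.63 in wild-type, a difference of -0.48 (SE 0.17, unadjusted p = 0.0339, adjusted p = 0.999). Lipt2, whose enzyme starts the transfer of the lipoyl precursor, stood at 6.17 and 5.94 in Cnot3+/- and 6.40 and 6.44 in wild-type, a difference of -0.36 (SE 0.14). Both Cnot3+/- livers were below both wild-type livers for each gene. Averaged over the list and set against wild-type, Cnot3+/- 1 had -0.14 and Cnot3+/- 2 had -0.25, beside 0.11 for wild-type 1 and -0.11 for wild-type 2. The median was -0.074 without Cnot3+/- 2, -0.073 without wild-type 1 and -0.29 without wild-type 2.

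Genes of cytosolic counterpart enzymes and of citrate and malate handling had 3 higher and 7 lower means in 10 tested, and 0 passed, with 0 at an unadjusted p below 0.05. Their median was -0.083, and 3 were lower and 0 higher without overlap, beside 17.4% and 14.1% of all genes. Acly, the ATP citrate lyase gene that draws on exported citrate for lipid synthesis, stood at 9.61 and 9.73 in Cnot3+/- and 9.81 and 10.30 in wild-type (difference -0.39, SE 0.20). Acly differed by -0.15 without wild-type 2 and by -0.63 without wild-type 1. Got1, the cytosolic aspartate aminotransferase gene, stood at 12.24 and 11.31 in Cnot3+/- and 11.36 and 11.11 in wild-type (difference 0.54, SE 0.32). As for Fh1, its high value was on Cnot3+/- 1 alone, and without that array it differed by 0.081. Genes that feed carbon into the cycle or draw it off had 7 higher and 5 lower means in 12 tested, with a median of 0.066. Again 0 were past the threshold and 0 had an unadjusted p below 0.05. Without overlap 2 were higher and 1 lower. Pcca, a propionyl-CoA carboxylase subunit gene, differed by 0.26 (SE 0.15), and by 0.15 without Cnot3+/- 1. Mmaa, a gene of cobalamin handling for methylmalonyl-CoA mutase, differed by -0.29 (SE 0.17), by -0.11 without wild-type 1 and by -0.46 without wild-type 2.

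Transcription regulators of mitochondrial genes had 4 higher and 7 lower means in 11 tested, with a median of -0.090. Without overlap 3 were higher and 3 lower, beside 14.1% and 17.4% of all genes. None of the 11 passed in limma, and 1 had an unadjusted p below 0.05. That gene was Ppargc1a, which encodes the coactivator PGC-1alpha. It stood at 7.29 and 7.04 in Cnot3+/- and 5.63 and 6.44 in wild-type, the widest difference in these lists (1.13, SE 0.29, adjusted p = 0.999). It was 0.73 without wild-type 1 and 1.54 without wild-type 2. Nrip1, which encodes a corepressor, stood at 7.77 and 8.23 in Cnot3+/- and 7.54 and 7.60 in wild-type (difference 0.43, SE 0.19). Of its other probe sets above the filter, 3 gave 0.39, 0.33 and 0.49 and 1 gave -0.22. Without Cnot3+/- 2 the difference of Nrip1 was 0.20, and without Cnot3+/- 1 it was 0.66. The median of this list was 0.051 without Cnot3+/- 2 and -0.22 without Cnot3+/- 1.

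**Figure D5:**
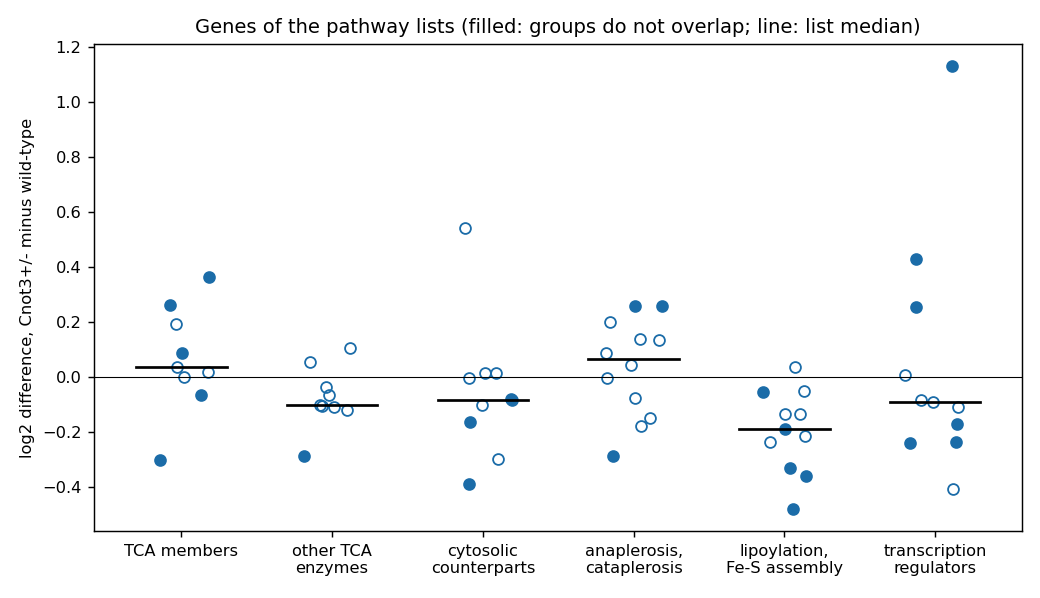
Log2 differences, Cnot3+/- minus wild-type, of the tested genes of each list, with the list median as a line. Filled points are genes whose groups do not overlap. The lipoylation and iron-sulfur list has its median at -0.19, and the single point above 1 is Ppargc1a.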

How the data were processed

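Liver RNA of 4 mice was measured on 1 array each. The deposited table holds log2 values made by the authors with RMA, per the submitters' processing notes. The sources used here name neither the RMA version nor the arrays normalized with each other. The log2 scale was taken from the values (1.85 to 14.96). RMA compresses differences of dim probe sets. All 4 columns were mapped and 0 were left over.

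Of 45101 probe sets, 34958 had 1 gene symbol in the platform annotation, 932 several and 9211 none. The lowest 40% by mean value (below 4.06) were dropped and 27061 stayed. A gene took its brightest probe set, an _x_at or _s_at one only where no other passed. This gave 13380 genes. Of the members' 21 probe sets 20 passed. Groups were compared with limma 3.58.1 in R 4.3.3 (lmFit, eBayes, two-sided, no covariate, Benjamini-Hochberg over all genes, threshold 0.05). Residual degrees of freedom were 2, with 3.17 more from the prior. SEs of probe sets that do not represent a gene come from a separate fit of the same kind over all 27061, with 3.41 degrees of freedom from its prior. The procedure was tested on simulated data with planted differences larger than those of the members. That test therefore does not show how well differences of the members' size are found.

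The members, lists and tests were chosen with earlier results of these data known. The genes named are all members, Cnot3, all tested genes of the other TCA list, the 2 largest differences of each further list and the 5 genes most like the members' profile. Alternatives were other filters, quantile normalization, averaged probe sets, a variance trend, array weights, a replicate block and each array left out.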

Additional observations from a re-analysis of the deposited data

How the results depend on the processing

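No member passed the adjusted threshold of 0.05 in any of the 11 alternatives for genes or the 10 for probe sets. The unadjusted limma p of Idh2, 0.0528 in the main fit, was 0.0475 with no filter and 0.0445 with probe sets averaged. This limma p was 0.0550 with the lowest 60% left out and 0.0550 after quantile normalization. With a variance trend it was 0.0547 and with array weights 0.0533. The difference of Idh2 ran from 0.25 to 0.48 with single arrays left out. Of 99 repeated differences of the members, 48 equal the first value by construction (5 alternatives change the filter, the variance or the weights but not a member's difference, and averaging leaves genes with 1 probe set as they are). Of the other 51, 42 kept their sign. With single arrays left out, Idh3g ran from -0.15 to 0.18, Dlst from -0.064 to 0.13, Fh1 from -0.039 to 0.43 and Mdh2 from -0.045 to 0.045. After quantile normalization Idh3g was -0.0028 and Mdh2 -0.0062. With single arrays left out the members' median ran from -0.016 to 0.14 and that of all genes from -0.011 to -0.0052. The median of all genes was -0.020 with no filter, 0.0078 with the lowest 60% left out, -0.029 after quantile normalization and -0.014 with probe sets averaged. List medians with single arrays left out ran from -0.18 to 0.066 for other TCA enzymes, -0.15 to -0.040 for cytosolic counterparts, 0.028 to 0.097 for anaplerosis, -0.29 to -0.073 for lipoylation and -0.22 to 0.051 for regulators. Differences ran from -0.30 to 0.087 for Idh3b, -0.23 to 0.098 for Dld, -0.018 to 0.23 for Suclg2, -0.17 to 0.095 for Sucla2, -0.035 to 0.15 for Sdha, -0.21 to 0.011 for Sdhb, -0.18 to -0.031 for Sdhc, -0.40 to -0.17 for Sdhd, -0.19 to -0.056 for Mrps36 and -0.36 to 0.30 for Cnot3. With probe sets averaged, Cnot3 was 0.040. The number of all genes past the threshold upward was 0 to 36 with an array left out. With the replicate block it was 0, against 2 without it. The replicate numbers share only a number, and same-numbered livers deviated with a correlation of 0.16 over all genes and 0.51 over the 9 members. Fits that leave out an array, and the block fit, have 1 residual degree of freedom, and a lone array is assumed to vary like the other group. The causes of these shifts were not tested.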
